A study of Mus musculus with 20 samples.

Results

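The lysosomal hydrolases and membrane proteins described here are encoded by 46 mouse genes. These genes were chosen by name for the role of their products in the lysosome, with earlier results of these data known. They were looked up by Ensembl gene identifier in the table of counts, which lists 55487 identifiers. All 46 were found and all 46 passed edgeR's filter on low counts, beside 12799 genes tested in all. By role, 10 encode cathepsins or related proteases, 9 act in sphingolipid and ganglioside breakdown, 7 in glycosaminoglycan breakdown, 6 in glycoprotein or glycogen breakdown, 5 are lipases, phosphatases or a thioesterase, and 9 encode membrane proteins or a sterol transfer protein.

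RNA was sequenced from 20 cultures of BV-2, an immortalised mouse microglial cell line derived from neonatal C57BL/6 brain cultures and labelled as wild type in every sample. Young BV-2 microglia of low passage and aged BV-2 microglia, the same line after long-term cultivation, were either left untreated or exposed to bacterial lipopolysaccharide (LPS) at 100 ng/ml for 6 hours, with 5 cultures in each of the 4 groups. All cells came from 1 line, so the replicates are cultures and not animals, and ageing here means time in culture. The authors froze the aged cells after long-term cultivation and used aliquots, with control cells started from a lower passage. Whether more than 1 long-term cultivation was used is not given in the sources used here. Time in culture therefore cannot be told apart from other differences between the stocks. Every culture has a batch number from 1 to 5, which all 4 groups share.

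Lysosomes are acidic organelles in which proteins, lipids and sugars taken up by phagocytosis or delivered by autophagy are broken down. Most soluble hydrolases receive a mannose 6-phosphate tag in the Golgi apparatus that routes them to the lysosome, and a proton pump, the V-ATPase, keeps the lumen acidic. Transcription factors of the MiT/TFE family, TFEB among them, bind short DNA sequences known as CLEAR elements in the promoters of many lysosomal genes. Microglia are phagocytes with a large lysosomal compartment, and inherited loss of many of the enzymes listed here causes a lysosomal storage disease that often affects the brain.

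Total counts per library ranged from 11371508 to 16829292. The 46 genes held 1.99% to 3.21% of the counts of a library. Of 12 microglia and macrophage markers all 12 exceeded 3 counts in at least 1 library, with Csf1r at 562 to 998 CPM, whereas the homeostatic marker P2ry12 stayed between 0 and 1.87 CPM, at or below 3 counts in every aged LPS library, and Cx3cr1 between 0 and 1.73 CPM. No marker of neurons (4 listed) or fibroblasts (3 listed) exceeded 3 counts in any library, and 1 of 4 astrocyte and 2 of 4 oligodendrocyte markers did so, with summed levels of at most 0.747 and 1.78 CPM. CPM here is the count per 1000000 counts of the library after TMM scaling, and the TMM factors were 1.04 to 1.08 in untreated and 0.891 to 0.973 in LPS-treated libraries.

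Because TFEB and its relatives bind CACGTG-containing elements, the promoters are shown first. RefSeq promoter windows, from 250 bases before to 50 after the transcription start in assembly GRCm38.p6, were at hand for 41 of the 46 genes (all but Asah1, Ctsh, Galns, Ctsb and Aga). Both strands were searched. The letters CACGTG occurred in 13 of 41 windows (31.7%), against 8.09% of 27025 promoters of all genes. The longer TCACGTG, which contains CACGTG, occurred in 12 (29.3% against 4.29%), and the palindrome TCACGTGA in 5 (12.2% against 1.12%). Extended by a G on its left and a C on its right, the palindrome was found in 1 member, Cln3 (2.44% against 0.37%). The 12 genes with TCACGTG were Arsa, Cln3, Ctsa, Ctsd, Gaa, Gla, Glb1, Lamp1, Lgmn, Mcoln1, Naglu and Sgsh. 1 stretch is printed for each of the 10 in which the whole stretch of 40 bases around a match lay upstream of the RefSeq start (those of Arsa and Ctsa cross it), 5′ to 3′ on the strand of the gene, with the matching letters in capitals. By GENCODE gene extents the stretches of Gaa, Gla, Glb1 and Lamp1 lay outside the gene, and those of the other 6 lay within the extent or across its end.
Cln3 (chr7:126583335-126583374, minus strand): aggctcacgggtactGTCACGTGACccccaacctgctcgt
Ctsd (chr7:142387903-142387942, minus strand): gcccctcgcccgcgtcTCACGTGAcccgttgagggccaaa
Gaa (chr11:119267806-119267845, plus strand): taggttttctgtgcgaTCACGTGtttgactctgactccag
Gla (chrX:134601177-134601216, minus strand): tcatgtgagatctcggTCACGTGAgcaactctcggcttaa
Glb1 (chr9:114401013-114401052, plus strand): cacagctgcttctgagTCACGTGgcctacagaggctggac
Lamp1 (chr8:13159083-13159122, plus strand): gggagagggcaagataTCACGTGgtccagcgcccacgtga
Lgmn (chr12:102439119-102439158, minus strand): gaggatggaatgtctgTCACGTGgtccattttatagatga
Mcoln1 (chr8:3500457-3500496, plus strand): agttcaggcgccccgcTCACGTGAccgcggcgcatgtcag
Naglu (chr11:101070004-101070043, plus strand): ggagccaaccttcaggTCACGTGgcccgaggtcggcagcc
Sgsh (chr11:119355517-119355556, minus strand): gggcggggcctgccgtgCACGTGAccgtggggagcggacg

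The windows of Cln3, Ctsd, Gla, Ctsa and Mcoln1 each held a second match, and that of Lamp1 held 4. A match of letters is a description of the sequence, and no binding was measured in these cultures. The genes below carry the motif or lack it as named here, and the calls of both kinds are given for each comparison.

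Per length of transcript, as TPM (counts divided by the length of the union of exons and scaled to 1000000 in each library), Ctsz had the highest mean level over all 20 libraries (5928 TPM), followed by Ctsd (3253 TPM), Psap (2719 TPM), Ctsb (1894 TPM) and Lgmn (1334 TPM). Cathepsins Z, D and B are lysosomal proteases, prosaposin (Psap) is the precursor of the saposins that present sphingolipids to their hydrolases, and legumain (Lgmn) is an asparaginyl endopeptidase that also processes cathepsins. With the length of the longest transcript in place of the exon union the first 4 kept their order and Ctsa took the place of Lgmn. The lowest levels belonged to Ids at 0.651 TPM, Smpd1 at 6.89 TPM, Sgsh at 11.3 TPM and Acp5 at 11.6 TPM, so statements on these 4 genes rest on few reads. Reads of Ctsd can also belong to Gm49369, a gene model on the same strand with 42.5% of the counts of Ctsd, and those of Glb1 to Tmppe (31.5%), so the levels of both are uncertain.

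Cultures of 1 group differed in these genes together. The deviation of each gene's log2 CPM from its group mean had a median over the 46 genes of 0.20 in young untreated culture 1, where 42 of 46 were above the group mean, and of -0.24 in young untreated culture 4, where 7 were above it. In aged untreated culture 3 the median was 0.23, with 39 of 46 above the mean. The LPS-treated culture of the same age and batch deviated the same way, at 0.12 for young batch 1, -0.19 for young batch 4 and 0.22 for aged batch 3. Over all genes tested, the median deviation of these libraries was within 0.008 of 0 on the log2 scale. TMM scaling keeps that median near 0, so it cannot show whether other sets of genes shifted in these cultures. Among the 34 members at or above the members' lower quartile of level, the median SD within groups was 0.16 on the log2 scale, against 0.090 for the 3272 tested genes in that range of level. Acp5, Gm2a, Ids, Glb1, Hexa and Ctsd had the widest spread and Laptm5, Lamp1 and Cln3 the narrowest.

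**Figure D1:**
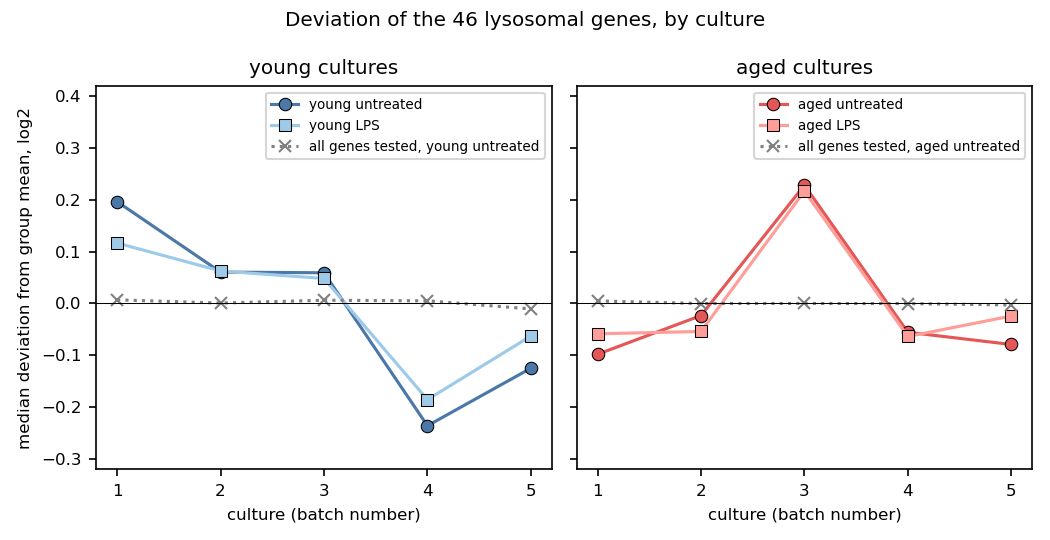
Median deviation of the 46 genes from their group mean (vertical axis, log2 CPM) by batch number of the culture (horizontal axis), for young (left) and aged (right) cultures, untreated (circles) and LPS-treated (squares), with the same median over all genes tested in the untreated libraries (crosses). Young batch 1 and aged batch 3 stand highest in both treatments, at 0.20 and 0.12 and at 0.23 and 0.22, and young batch 4 lowest, at -0.24 and -0.19.

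A list of 10 interferon-stimulated genes moved with some of these libraries. Its summed level was 94.4 CPM in young untreated culture 1 and 25.6 to 45.0 CPM in the other young untreated cultures, and 3026 CPM in aged LPS culture 3 against 1031 to 1592 CPM in the other aged LPS cultures. In aged untreated culture 3, however, it was the lowest of its group, at 11.4 CPM against 12.4 to 14.8 CPM. Its part in the differences between cultures was not tested, and the counts without the libraries that stand apart are given with each comparison.

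The first comparison asked how the genes differed between aged and young BV-2 microglia without LPS. The lysosomal genes that changed were all lower in the aged cultures. Of 46, 14 passed the test (edgeR, Benjamini-Hochberg adjusted p below 0.05 over all genes tested) as lower and none as higher, which is 30.4% of the members, whereas 7.81% of all genes tested were called lower and 3.71% higher. In sign, 43 of 46 were below the young level, and the median log2 fold change was -0.25 against -0.014 for all genes tested. At an unadjusted p below 0.05, 0 were higher and 23 lower, and DESeq2 called 0 higher and 15 lower. As for any bulk measurement, lower RNA per cell cannot be told apart from fewer cells that express a gene. The count depends on single cultures: it was 8 without young untreated culture 1, 21 without aged untreated culture 3, 6 when batch 1 was left out of all groups, 6 without batch 2, 8 without batch 5 and 18 without batch 3. With the batch as a block 20 were called lower, the added genes being Lgmn, Hexa, Asah1, Gusb, Fuca1 and Laptm4a. Deviations of aged and young untreated cultures sharing a batch correlated at only 0.111 on average across genes. The calls of Galc, Psap, Naglu, Sgsh, Pla2g15, Lamp2, Scarb2 and Cln3 were each lost when at least 1 of the batches was left out, and those of the other 6 genes were not. Where a TCACGTG motif was found, 3 of 12 genes were called lower with a median of -0.22, and where it was not, 10 of 29 with a median of -0.28.

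**Figure D2:**
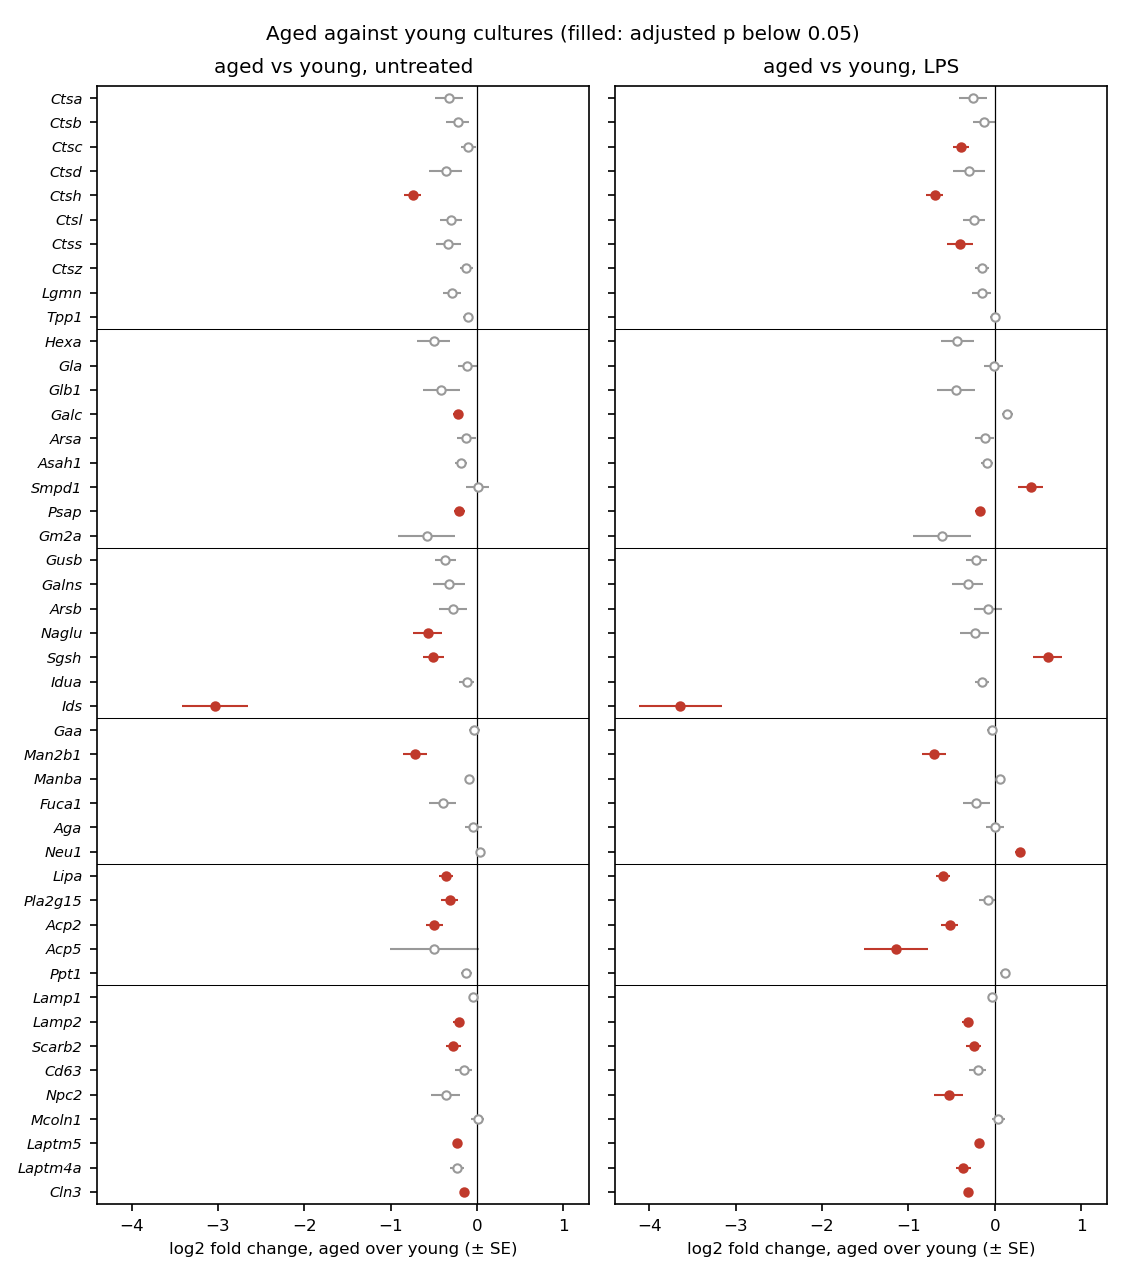
Log2 fold change of aged over young cultures with its SE (horizontal axes) for each of the 46 genes (vertical axis, grouped by role with lines between roles), untreated (left) and under LPS (right), from edgeR with 5 cultures a group. Filled symbols passed the test, 14 lower and 0 higher without LPS, and 15 lower and 3 higher under LPS. The estimate for Ids under LPS rests on libraries at or below 3 counts.

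Among the proteases, all 10 were lower in sign and 1, Ctsh, passed. Cathepsin H, an aminopeptidase, stood at 180.2, 177, 161, 133 and 161 CPM in young untreated cultures 1 to 5 and at 97.4, 90.1, 110.0, 85.6 and 101 CPM in the aged ones. The groups did not overlap, and the aged level was 1.68-fold lower (log2 -0.75 ± 0.10, SE; edgeR adjusted p = 2.29e-05). Cathepsin D, the main aspartic protease, gave 3786, 2484, 2743, 1943 and 2106 CPM in young and 1719, 1919, 2901, 1869 and 1733 CPM in aged cultures. Aged culture 3 lay above 4 of the 5 young ones, and the difference of -0.37 ± 0.19 did not pass (edgeR adjusted p = 0.232). Cathepsins B, L and S, cysteine proteases of which cathepsin S serves antigen presentation, were not called either. Ctsb was at 4364, 2966, 2899, 2491 and 2810.1 CPM in young and 2269, 2518, 3514, 2452 and 2534 CPM in aged cultures, Ctsl at 2367, 1940.4, 1895, 1520.2 and 1609.9 and 1287, 1506, 1953, 1388 and 1417 CPM, and Ctss at 584, 509.9, 487, 381 and 430.1 and 325, 351, 529.6, 341 and 349 CPM. Aged culture 3 was the highest of its group in each, the groups overlapped, with log2 differences of -0.23 ± 0.13, -0.31 ± 0.13 and -0.33 ± 0.15 and adjusted p-values of 0.299, 0.137 and 0.152.

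Legumain was measured at 1459, 1217, 1193, 1038 and 1152 CPM in young and 934, 1000.3, 1216, 882 and 923 CPM in aged cultures. It was lower in 4 of 5 batches, and the difference of -0.29 ± 0.11 had an adjusted p of 0.0861, or 0.0458 with the batch as a block. The remaining proteases were Ctsa (serine carboxypeptidase cathepsin A), Ctsc, Ctsz and Tpp1 (tripeptidyl peptidase 1), with log2 differences from -0.32 to -0.10 and overlapping groups.

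For sphingolipids, 2 of 9 genes were called lower and 8 of 9 were lower in sign. Galactosylceramidase (Galc), which degrades the myelin lipid galactosylceramide, was at 136, 126, 131, 111 and 110.4 CPM in young and 97.7, 108, 115, 105 and 99.2 CPM in aged cultures. The log2 difference was -0.23 ± 0.058 (adjusted p = 0.0131) and the aged culture was lower in all 5 batches, although aged culture 3 exceeded young cultures 4 and 5. Psap gave 2718, 2419, 2465, 2612 and 2626 CPM in young and 2219.6, 2088, 2516, 2107 and 2209 CPM in aged cultures, a difference of -0.21 ± 0.061 (adjusted p = 0.0304) with 1 aged culture inside the young range. The call of Psap was lost without young untreated culture 1. Hexa, the alpha subunit of beta-hexosaminidase, which degrades GM2 ganglioside, gave 690.3, 589.9, 588, 339.8 and 403 CPM in young and 306, 362, 522, 333 and 318 CPM in aged cultures. Young cultures 1 to 3 lay well above young cultures 4 and 5, and Hexa was lower in all 5 batches. Its difference of -0.50 ± 0.19 did not pass without the block (adjusted p = 0.0898) and passed with it (0.0152). Glb1, the lysosomal beta-galactosidase, was at 158, 121, 137, 75.6 and 87.4 CPM in young and 70.4, 92.2, 119.6, 85.0 and 67.2 CPM in aged cultures (-0.41 ± 0.22, adjusted p = 0.245), with overlapping groups. Smpd1, acid sphingomyelinase, was at 8.55, 5.56, 7.61, 6.07 and 6.86 and 8.41, 6.53, 6.85, 7.53 and 5.39 CPM and overlapped throughout.

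In glycosaminoglycan breakdown, 3 of 7 genes were called lower, all of them steps in heparan sulfate or dermatan sulfate degradation. Ids, iduronate 2-sulfatase, was barely expressed: 2.14, 2.94, 2.41, 0.857 and 1.53 CPM in young and 0.259, 0.269, 0.0571, 0.439 and 0.133 CPM in aged cultures. Every aged value lay below every young value, and the fitted difference was -3.04 ± 0.38 on the log2 scale (adjusted p = 1.65e-05), from 13 to 46 reads a library in young and 1 to 8 in aged cultures. Sgsh, the N-sulfoglucosamine sulfohydrolase, gave 30.1, 29.3, 31.7, 20.1 and 23.1 CPM in young and 16.8, 19.5, 22.0, 18.1 and 18.0 CPM in aged cultures. The aged culture was lower in all 5 batches, with a log2 difference of -0.51 ± 0.12 (adjusted p = 0.00801), and aged culture 3 lay above young culture 4. Naglu, the alpha-N-acetylglucosaminidase of the same pathway, ranged from 51.6 to 100.0 CPM in young and from 43.1 to 67.1 CPM in aged cultures (-0.57 ± 0.17, adjusted p = 0.0301), a call lost without young untreated culture 1. Gusb, beta-glucuronidase, narrowly missed the threshold (-0.37 ± 0.12, adjusted p = 0.0504, with the block 0.00922) and Galns, Arsb and Idua did not pass.

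Of the 6 glycoprotein and glycogen enzymes, 1 was called. Man2b1, the lysosomal alpha-mannosidase, ranged from 308 to 442 CPM in young and from 217 to 283 CPM in aged cultures. The groups did not overlap, and the aged level was 1.65-fold lower (-0.72 ± 0.14, adjusted p = 0.00151). Neuraminidase 1 (Neu1), which removes sialic acids, was at 188, 179, 194, 165 and 159 CPM in young and 187, 173, 193, 184 and 172 CPM in aged cultures, so the groups overlapped (0.039 ± 0.053, adjusted p = 0.716). Acid alpha-glucosidase (Gaa, -0.03 ± 0.058) and beta-mannosidase (Manba, -0.10 ± 0.047) did not pass, and the alpha-fucosidase gene Fuca1 passed only with the block (-0.40 ± 0.15, adjusted p = 0.0984, with the block 0.037).

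Lipases and phosphatases fell in 3 of 5 cases. Lysosomal acid lipase (Lipa), which releases cholesterol and fatty acids from lipoprotein lipids, was at 606, 580.2, 519.7, 496 and 522 CPM in young and 386, 418, 495, 390.2 and 429.5 CPM in aged cultures. No aged value reached the young range, and the difference was -0.36 ± 0.081 (adjusted p = 0.00526). Acp2, lysosomal acid phosphatase, gave 134, 144, 138, 126 and 119.8 CPM in young and 84.5, 86.9, 113, 89.4 and 96.0 CPM in aged cultures, without overlap (-0.49 ± 0.10, adjusted p = 0.00238). Pla2g15, the lysosomal phospholipase A2, was 1.25-fold lower (-0.32 ± 0.10, adjusted p = 0.0415), a call lost without young untreated culture 1. Acp5, tartrate-resistant acid phosphatase, varied from 0.323 to 4.45 CPM among aged cultures and overlapped the young range of 1.12 to 3.72 CPM, and Ppt1, a palmitoyl thioesterase, overlapped as well.

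Of 9 membrane protein genes, 4 were called lower. Laptm5, a membrane protein of leukocyte lysosomes, was at 1231, 1309, 1314, 1290.2 and 1232 CPM in young and 1147, 1082, 1034, 1113 and 1069 CPM in aged cultures, without overlap (1.17-fold lower, -0.23 ± 0.043, adjusted p = 0.00124). Cln3, the protein mutated in juvenile Batten disease, gave 89.2, 83.9, 84.8, 93.1 and 86.5 CPM and 81.0, 73.4, 75.2, 83.4 and 81.9 CPM, also without overlap (-0.15 ± 0.046, adjusted p = 0.04). Lamp2, which serves chaperone-mediated autophagy and fusion with autophagosomes, was at 630.3, 609, 560.1, 511 and 547 CPM in young and 506, 488, 510.3, 446 and 511 CPM in aged cultures (-0.21 ± 0.062, adjusted p = 0.0272). In Lamp2 the lowest young culture, 4, lay just inside the aged range. Scarb2, the receptor that carries glucocerebrosidase to the lysosome, was at 207, 215, 190.2, 171 and 164 and 157, 169, 172, 146 and 138 CPM and lower in all 5 batches (-0.28 ± 0.087, adjusted p = 0.0428). Without young untreated culture 1 the calls of Cln3, Lamp2 and Scarb2 were lost and that of Laptm5 was not.

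Lamp1, the abundant glycoprotein of the lysosomal membrane, was not called. Its values of 923, 875, 886, 831 and 838 CPM in young and 865, 817, 895, 817 and 834 CPM in aged cultures gave a difference of -0.042 ± 0.045 (adjusted p = 0.62). The calcium channel gene Mcoln1 (TRPML1) was at 81.1, 77.3, 86.2, 78.5 and 73.0 and 78.8, 71.9, 85.7, 86.3 and 74.6 CPM (0.0055 ± 0.071, adjusted p = 0.975). Cd63 and the cholesterol carrier Npc2 did not pass, and Laptm4a passed with the block (-0.23 ± 0.083, adjusted p = 0.0729, with the block 0.0193).

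**Figure D3:**
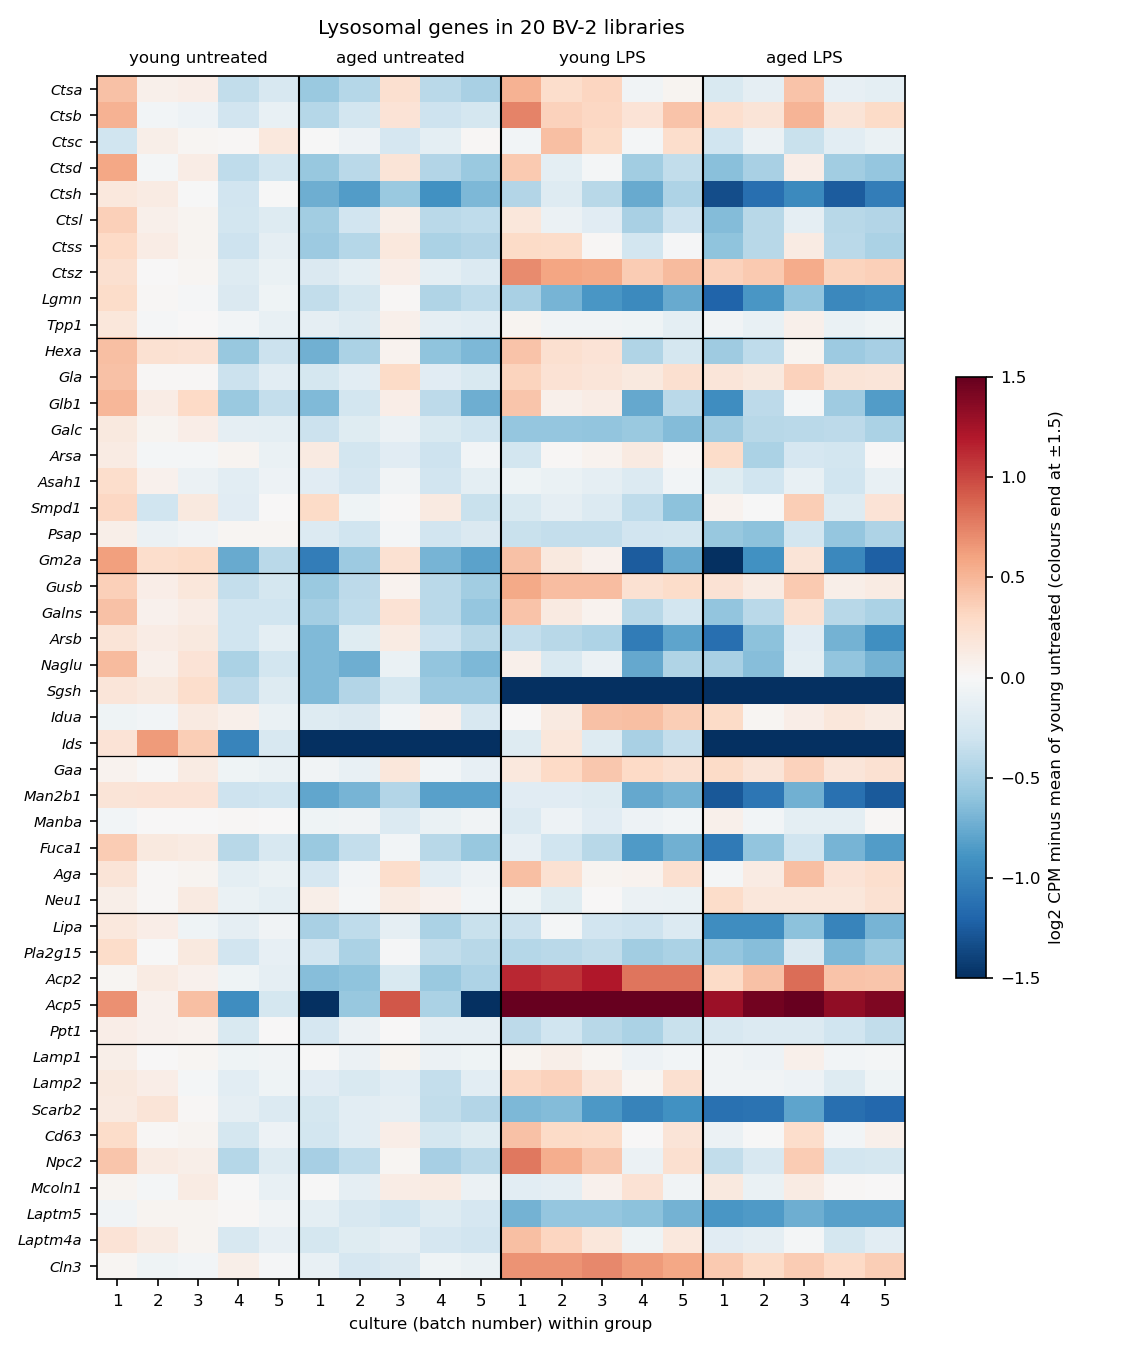
Log2 CPM of each of the 46 genes (rows, ordered by role) in each of the 20 libraries (columns, batches 1 to 5 within each group) minus its mean in young untreated cultures, with colours ending at ±1.5. Genes of one culture shift together, as in aged culture 3, where 39 of 46 untreated and 40 under LPS lie above the group mean. Acp2, Cln3, Ctsz and Acp5 rise under LPS while Sgsh, Lgmn, Scarb2 and Laptm5 fall.

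The second question was how the genes responded to LPS. In young cultures 11 of 46 were called higher and 15 lower, where 31.2% of all genes tested were called higher and 33.5% lower. In aged cultures 11 were called higher and 11 lower, against 27.5% and 26.9% of all genes. The share of members called was thus 56.5% in young cultures and 47.8% in aged ones, against 64.6% and 54.4% of all genes tested, and the median log2 fold change was -0.072 in young and 0.010 in aged cultures. This split depends on the scaling: with library sizes alone, which move the median of all genes by -0.22 in young and -0.16 in aged cultures, 4 were called higher and 22 lower in young and 6 higher and 16 lower in aged cultures. All directions below are relative to TMM scaling. The young response had 9 higher and 14 lower genes without young LPS culture 1, and 14 and 13 without young untreated culture 1. The aged response had 13 and 8 without aged untreated culture 3, and 9 and 13 without aged LPS culture 3. Calls lost when at least 1 batch or 1 of these cultures was left out were those of Ctsb, Smpd1, Manba, Lipa, Cd63 and Laptm4a in young cultures, and of Gla, Arsb, Man2b1, Aga, Neu1 and Ppt1 in aged ones. With the batch as a block Ctsc and Npc2 were also called higher and Naglu lower in young cultures, and Lamp2 and Cd63 higher and Fuca1 and Pla2g15 lower in aged ones. Both ages called 8 genes higher (Ctsb, Ctsz, Gusb, Idua, Gaa, Acp2, Acp5 and Cln3). The 11 called lower at both ages were Ctsh, Lgmn, Galc, Psap, Arsb, Sgsh, Man2b1, Lipa, Ppt1, Scarb2 and Laptm5. The matching overlap between ages over all genes tested was not counted. With library sizes alone Ctsb, Gusb, Idua, Gaa, Lamp2, Cd63 and Laptm4a were no longer called higher in young cultures (Laptm4a then turned to -0.014), nor were Gla, Idua, Gaa, Aga and Neu1 in aged cultures.

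The largest fall was that of Sgsh. Under LPS it was at 3.95, 3.57, 3.59, 4.33 and 4.64 CPM in young cultures 1 to 5 and at 5.34, 5.86, 6.69, 8.05 and 4.85 CPM in aged ones, all far below the untreated values given above. The decrease was 6.68-fold in young cultures (-2.74 ± 0.15, adjusted p = 1.79e-13) and 3.07-fold in aged ones (-1.62 ± 0.14, adjusted p = 1.11e-09). Slc26a11, a transporter gene that runs the other way and begins 21 bases from the start of Sgsh (GENCODE, GRCm38, chr11:119355557-119381079, Sgsh ending at 119355536), also fell by 2.64 on the log2 scale in young cultures and fell by 2.06 in aged ones. The Sgsh stretch printed above lies at this shared start. Exons of Card14 overlap Sgsh on the opposite strand, its counts summed to 106% of those of Sgsh over all libraries, and under LPS it fell by 1.12 on the log2 scale in young cultures and fell by 0.75 in aged ones, so with the strand setting of the counting not given in the sources used here, part of the Sgsh signal is uncertain.

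Among proteases Ctsz rose and Lgmn fell. Cathepsin Z reached 3524, 3235, 3187, 2791 and 2995 CPM in young LPS cultures, where untreated ones had 2544, 2166, 2204, 1886 and 2013 CPM. In aged cultures it rose from 1851, 1944, 2309, 1939 and 1874 to 2744, 2815, 3174, 2704 and 2748 CPM. No treated value overlapped the untreated ones of its age (0.54 ± 0.077 in young, adjusted p = 2.12e-06, and 0.52 ± 0.077 in aged, adjusted p = 6.32e-06). Ctsb was at 5103, 3865, 3778, 3519 and 4083 CPM in young and 3629, 3476, 4356, 3491 and 3715 CPM in aged LPS cultures, higher in every batch by 0.39 ± 0.13 and 0.49 ± 0.13 (adjusted p = 0.0131 and 0.00325). The young call of Ctsb was lost without young LPS culture 1 and without batch 5. Legumain was at 856, 744, 659, 620.0 and 713 CPM in young and 525, 659, 801, 617 and 631 CPM in aged LPS cultures, all below the untreated cultures of the same age. Its decreases were 1.69-fold and 1.53-fold (adjusted p = 2.36e-06 and 4.87e-05).

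Ctsh fell from the levels above to 119, 141, 121, 95.5 and 117 CPM in young and 64.3, 73.7, 83.1, 67.7 and 78.3 CPM in aged cultures (-0.45 ± 0.10 and -0.40 ± 0.10, adjusted p = 2.53e-04 and 0.00137), so the lowest Ctsh values of all were those of aged cultures under LPS. Ctsd, at 3327, 2302, 2494, 1772 and 1973 and 1646, 1818, 2718, 1769 and 1692 CPM, Ctsl, at 2079.8, 1739.7, 1638, 1315 and 1481 and 1175, 1383, 1685, 1385 and 1362 CPM, and Ctss, at 578, 574, 480.5, 390.2 and 468 and 313, 354, 517, 359 and 340.2 CPM, were not called in either age. Ctsd and Ctsl were nonetheless lower in 5 of 5 batches in both ages. Ctsc, the dipeptidyl peptidase that activates serine proteases, was at 296, 386, 369.6, 366 and 405 CPM in untreated young cultures. LPS-treated young cultures had 353, 497, 443, 354 and 434 CPM, and Ctsc passed there only with the block (adjusted p = 0.0697, with the block 0.0299). In aged untreated cultures it ranged from 304 to 367 CPM, and its LPS response there was not called (-0.097 ± 0.091, adjusted p = 0.386).

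In sphingolipid breakdown, Galc and Psap fell in both ages. Galc was at 81.6, 81.8, 81.4, 82.9 and 77.8 CPM in young LPS cultures, a narrow range well below the untreated one, and at 84.2, 91.9, 92.1, 93.4 and 87.8 CPM in aged LPS cultures (-0.60 ± 0.059 and -0.22 ± 0.058, adjusted p = 6.27e-09 and 0.0024). Psap reached 2028, 2004, 1994, 2109 and 2116 and 1731, 1669.7, 2114, 1717 and 1859.5 CPM (-0.32 ± 0.061 and -0.29 ± 0.061, adjusted p = 6.36e-05 and 2.87e-04). Smpd1 was called lower in young cultures alone, at 5.83, 6.22, 5.93, 5.22 and 4.42 CPM (-0.33 ± 0.14, adjusted p = 0.0487), and a difference between the responses of the ages was not shown (0.41 ± 0.20, adjusted p = 0.259). Hexa, at 679.6, 596, 581, 368 and 422 CPM in young and 349, 389, 519, 347 and 357 CPM in aged LPS cultures, and Glb1, at 149, 117, 121, 65.3 and 84.0 and 58.6, 85.1, 109, 77.3 and 62.2 CPM, followed the order of the untreated cultures and were not called. Gla, alpha-galactosidase A, was called higher in aged cultures (0.30 ± 0.11, adjusted p = 0.0221), where the young response was 0.20 ± 0.11 (adjusted p = 0.112).

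Other sugar-cleaving enzymes split. Gusb and Idua rose in both ages (Gusb 0.38 ± 0.12 and 0.54 ± 0.12, Idua 0.29 ± 0.084 and 0.27 ± 0.084), as did Gaa (0.28 ± 0.058 and 0.28 ± 0.058), whose treated and untreated values did not overlap in either age. Exons of Dgkq overlap those of Idua on the opposite strand, with 58.1% of the counts of Idua over all libraries. Arsb, arylsulfatase B, fell (-0.60 ± 0.16 and -0.40 ± 0.16), and so did Man2b1 (-0.40 ± 0.14 and -0.38 ± 0.14). Fuca1 (-0.49 ± 0.16) and Manba (-0.11 ± 0.048) were called lower in young cultures and were at -0.30 ± 0.16 and 0.05 ± 0.048 in aged ones. Neu1 was at 168, 156, 178, 166 and 165 CPM in young and 214, 198, 198, 198 and 207 CPM in aged LPS cultures, and rose in aged cultures without overlap (0.16 ± 0.053, adjusted p = 0.0136). Ids was at 1.58, 2.07, 1.59, 1.27 and 1.40 CPM in young LPS cultures and did not pass (-0.33 ± 0.28, adjusted p = 0.319). In aged LPS cultures it was at 0.211, 0.0825, 0, 0.155 and 0.145 CPM, at or below 3 counts in every library, so no fold is given there.

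Both phosphatase genes rose and Lipa fell in both ages. Acp2 reached 289, 279.9, 304, 231 and 229.9 CPM in young and 161, 179.6, 236, 178 and 176 CPM in aged LPS cultures. That is 2.02-fold and 1.98-fold the untreated level (1.01 ± 0.10 and 0.98 ± 0.10, adjusted p = 6.29e-09 and 1.93e-08), with no overlap at either age. Acp5 had the largest rise. Young cultures ranged from 1.12 to 3.72 CPM untreated and from 9.32 to 25.8 CPM under LPS, and aged ones from 0.323 to 4.45 CPM and from 5.69 to 15.0 CPM (2.83 ± 0.41 and 2.18 ± 0.45, adjusted p = 2.93e-06 and 2.94e-04). Lipa fell to 434, 531, 446, 439.5 and 471 CPM in young and 286, 285, 354, 274 and 336 CPM in aged cultures (-0.23 ± 0.081 and -0.47 ± 0.081, adjusted p = 0.0162 and 4.22e-05). Aged cultures under LPS were thus the lowest of the 4 groups for Lipa, with no overlap with any of the others. Pla2g15 was called lower in young cultures (-0.45 ± 0.10, adjusted p = 4.90e-04) and missed the threshold in aged ones (-0.22 ± 0.10, adjusted p = 0.0783, with the block 0.014). Ppt1 fell in both ages (-0.39 ± 0.061 and -0.15 ± 0.061), and its exons overlap the more abundant Cap1 on the opposite strand.

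In the membrane, Scarb2 and Laptm5 fell and Cln3 rose in both ages. Scarb2 was at 118, 119.6, 103, 94.2 and 101 CPM in young and 86.9, 87.4, 109, 85.7 and 83.1 CPM in aged LPS cultures (1.77-fold and 1.73-fold lower, adjusted p = 3.09e-08 and 1.03e-07). Laptm5 was at 778, 851, 855, 834 and 782 and 698, 710.2, 767, 723 and 722 CPM (-0.64 ± 0.043 and -0.59 ± 0.043, adjusted p = 1.00e-11 and 7.41e-11). Neither gene's treated values overlapped its untreated ones. Cln3 reached 139, 139.7, 144, 136 and 131 CPM in young and 115, 106, 114, 108 and 113 CPM in aged LPS cultures (0.66 ± 0.046 and 0.49 ± 0.046, adjusted p = 1.92e-11 and 4.67e-09). Apobr, whose exons overlap Cln3 on the opposite strand and whose counts were 112% of those of Cln3, rose too (2.17 and 1.57 on the log2 scale), so part of the rise is uncertain. Lamp2 was at 705, 725, 646, 582 and 674 CPM in young and 548, 549, 540.3, 496 and 545 CPM in aged LPS cultures, called higher in young ones (0.22 ± 0.062, adjusted p = 0.00352) and, with the block, in aged ones (0.12 ± 0.062, adjusted p = 0.104, with the block 0.0112). Lamp1 stayed at 893, 928, 886, 822 and 843 CPM in young and 840.3, 824, 914, 843 and 852 CPM in aged LPS cultures, inside or next to its untreated range. Mcoln1 was at 71.0, 72.3, 83.0, 91.6 and 76.1 and 87.2, 73.7, 86.0, 80.0 and 79.4 CPM and was not called.

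**Figure D4:**
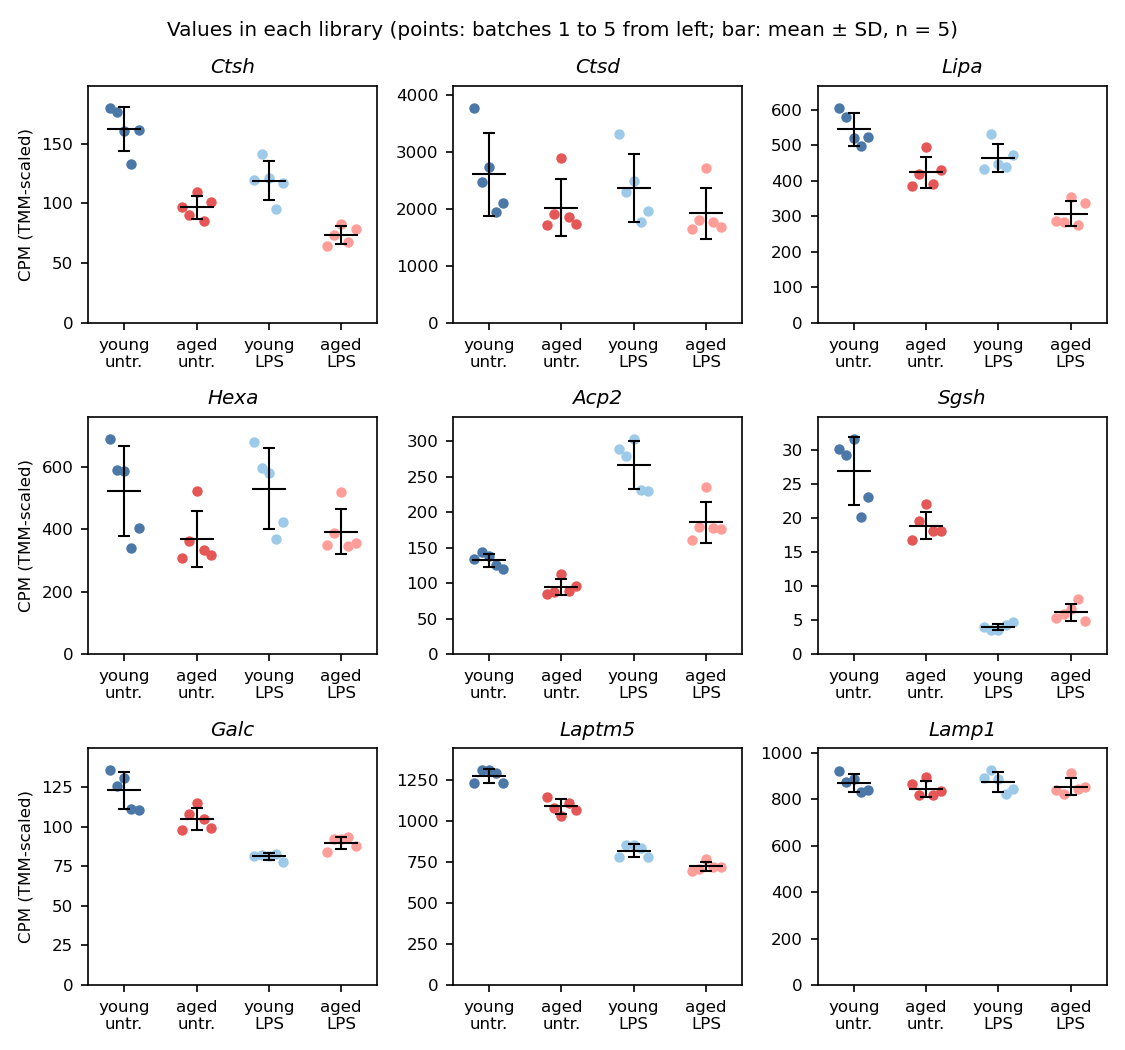
CPM (vertical axes, from 0) of 9 genes in each of the 20 libraries (points, batches 1 to 5 from left within each group), with the mean and SD of 5 cultures. Ctsh, Lipa and Laptm5 are lowest in aged cultures under LPS, Acp2 has its highest mean in young cultures under LPS, Sgsh drops to 3.57 to 8.05 CPM under LPS, and Lamp1 lies between 817 and 928 CPM in all libraries.

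Under LPS, aged cultures were compared with young ones. Of 46 genes 15 were called lower and 3 higher, against 15.0% and 14.0% of all genes tested, with a median log2 difference of -0.21 against 0.0085 for all genes tested. In sign 37 of 46 were lower. Without young LPS culture 1 the count of lower genes was 12 and without aged LPS culture 3 it was 20. Leaving out each batch in turn gave 10 to 18. The calls of Ctss, Scarb2 and Npc2 were lost without young LPS culture 1, and that of Smpd1 without aged LPS culture 3. Those of Ctss and Npc2 were also lost without batch 1, 2 or 5, and that of Smpd1 without batch 2, 3 or 5. Those of Psap and Scarb2 were lost without any 1 of batches 1, 2, 4 and 5, and that of Acp5 without batch 1 or 2. Of the 14 genes lower in untreated aged cultures 10 were also among the 15 lower under LPS. They were Ctsh, Psap, Ids, Man2b1, Lipa, Acp2, Lamp2, Scarb2, Laptm5 and Cln3. That is 71.4% of the first list and 66.7% of the second, and the matching overlap over all genes tested was not counted. The lists are not independent, since cultures of 1 age and batch deviated together with and without LPS. Of the 12 genes with a TCACGTG motif 1 was called lower and 1 higher, with a median of -0.13. Of the 29 without it 13 were called lower and 2 higher, with a median of -0.22.

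The proteases lower under LPS were Ctsh (-0.69 ± 0.10, adjusted p = 1.34e-05), Ctsc (-0.39 ± 0.091, adjusted p = 0.00241) and Ctss (-0.40 ± 0.15, adjusted p = 0.0435). Ctsc was at 294, 341, 289, 326 and 339 CPM in aged LPS cultures, all below the young LPS values given above. Lipa (1.51-fold lower, -0.60 ± 0.081, adjusted p = 9.61e-06) and Acp2 (-0.52 ± 0.10, adjusted p = 3.28e-04) were lower in every batch, as they were without LPS. Acp5, which rose in both ages, was 2.21-fold lower in aged LPS cultures (-1.14 ± 0.37, adjusted p = 0.0213), which DESeq2 did not call (adjusted p = 0.0854).

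For membrane proteins 6 of 9 were lower: Lamp2 (-0.31 ± 0.062), Scarb2 (-0.24 ± 0.09), Laptm5 (-0.18 ± 0.043), Laptm4a (-0.36 ± 0.084), Cln3 (-0.31 ± 0.045) and Npc2 (-0.53 ± 0.17), with adjusted p-values from 2.22e-05 for Cln3 to 0.0446 for Scarb2. Apobr, which overlaps Cln3, was also lower in aged LPS cultures (-0.84, adjusted p = 4.13e-05), so part of the Cln3 difference is uncertain. Lamp1 did not pass, and its direction turned with library sizes alone (-0.033 ± 0.045 with TMM, 0.048 without). The lower calls of Scarb2, Laptm5, Ctss and Psap were lost with library sizes alone. Ids was at least 7.10-fold lower in aged than in young LPS cultures, taking 3 counts a library as the floor of detection. Psap (-0.17 ± 0.061) and Man2b1 (-0.70 ± 0.14) were the other genes called lower.

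Higher in aged cultures under LPS were Neu1, Sgsh and Smpd1. Neu1 showed no overlap, with the lowest aged value of 198 CPM above the highest young value of 178 CPM (0.29 ± 0.053, adjusted p = 2.93e-04). Sgsh did not overlap either and was 1.53-fold higher (0.61 ± 0.16, adjusted p = 0.00711), although it was lower in aged cultures before LPS. Card14, whose exons overlap Sgsh, was higher in the same comparison (0.59, adjusted p = 0.0109), so part of this difference is uncertain. Smpd1 was at 7.09, 6.85, 8.90, 5.96 and 7.88 CPM in aged LPS cultures and higher in all 5 batches (0.42 ± 0.14, adjusted p = 0.0332). With the block Galc was also called higher (0.15 ± 0.059, adjusted p = 0.0642, with the block 0.0397) and Hexa lower (-0.43 ± 0.19, adjusted p = 0.0945, with the block 0.0186).

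Whether the ages differed in their LPS response was tested with the interaction term. It was called for 2 of 46 genes, both with a smaller fall in aged cultures and none with a lower response there (5 higher and 2 lower at an unadjusted p below 0.05, 3 and 0 by DESeq2), where 4.12% of all genes tested had a higher and 2.27% a lower response in aged cultures. Sgsh fell by 2.74 on the log2 scale in young and by 1.62 in aged cultures, a difference of 1.12 ± 0.20 (adjusted p = 0.00171). That of the overlapping Card14 was 0.37 and was not called (adjusted p = 0.408). This does not show how many Card14 reads were counted for Sgsh. Under LPS Card14 averaged 8.36 CPM in young and 12.6 CPM in aged cultures, above Sgsh at 4.01 and 6.16 CPM. Part of the Sgsh difference is therefore uncertain. Galc fell by 0.60 and by 0.22, a difference of 0.37 ± 0.083 (adjusted p = 0.00753), and this call was lost without batch 2. Neu1, which was lower in sign under LPS in young and higher in aged cultures, lay at the threshold (0.25 ± 0.075, adjusted p = 0.0508) and passed with the block (0.0164). For Cln3 (-0.16 ± 0.065, adjusted p = 0.15), Ctsc (-0.29 ± 0.13, adjusted p = 0.212) and Lipa (-0.23 ± 0.11, adjusted p = 0.263) a difference between the responses was not shown. The term was called higher for 1 of 12 genes with a TCACGTG motif (median 0.052) and for 1 of 29 without it (median 0.031).

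**Figure D5:**
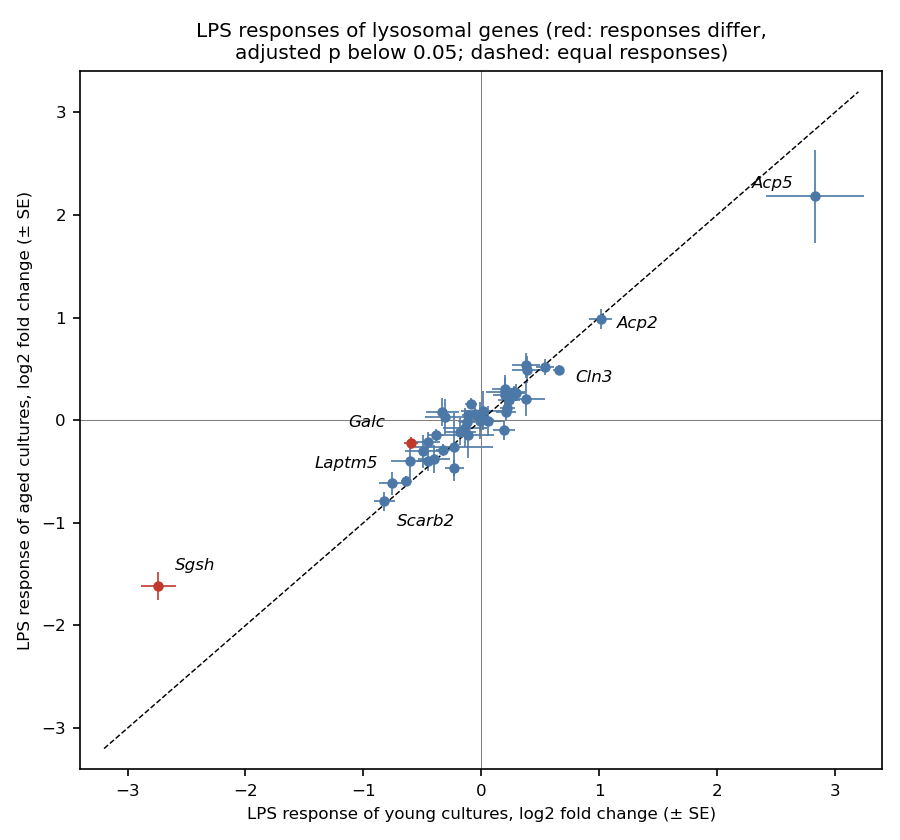
LPS response of each gene in aged cultures (vertical axis, log2 fold change with SE) against that in young cultures (horizontal axis), with the line of equal responses dashed. Ids is not drawn because its aged LPS libraries are at or below 3 counts. Sgsh (-2.74 and -1.62) and Galc (-0.60 and -0.22), in red, are the genes whose responses differed by the test. Exons of Card14 overlap Sgsh, so the values of Sgsh are partly uncertain.

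Other genes of the pathway, from lists of fixed membership, were read in the same fit. Over all genes tested, 11.5% were called between untreated ages. Of 18 V-ATPase subunit genes tested (of 19 listed) 0 were called between aged and young untreated cultures by edgeR (median log2 difference -0.0093), with 1 higher and 1 lower at an unadjusted p below 0.05, 0 by DESeq2 and 1 higher with the block. Under LPS 13 rose and 1 fell in young cultures (77.8% called), and 13 rose and 2 fell in aged ones (83.3%). Of all genes tested 31.2% rose and 33.5% fell in young cultures, and 27.5% and 26.9% in aged ones. The largest rises were those of Atp6v1h (1.04 ± 0.054 in young, 0.89 ± 0.054 in aged), a subunit of the cytosolic domain, and Tcirg1 (1.01 ± 0.074 and 0.68 ± 0.074), the a3 membrane subunit. Between aged and young LPS cultures 3 of 18 (16.7%) were lower, against 15.0% of all genes tested, Tcirg1 among them (-0.34 ± 0.073).

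The MiT/TFE transcription factors changed in different directions under LPS. Tfeb fell (-1.66 ± 0.12 in young, -1.26 ± 0.11 in aged, adjusted p = 2.42e-11 and 2.45e-09), with 25 to 32.3 CPM in untreated and 7.61 to 11.9 CPM in LPS-treated young cultures. Tfec rose (1.78 ± 0.11 and 1.71 ± 0.12), as did Mitf (0.90 ± 0.10 and 0.46 ± 0.10) and Tfe3 (0.39 ± 0.089 and 0.27 ± 0.088). Tfec was the one member of the 4 that differed between untreated ages, at 9.17 to 11.9 CPM in young and 2.91 to 5.06 CPM in aged cultures (-1.37 ± 0.12, adjusted p = 1.87e-07). Among the lysosomal genes with the TCACGTG motif, 2 of 12 were called higher and 2 lower under LPS in young cultures, against 8 and 12 of the 29 without it. In aged cultures 3 of 12 were higher and 2 lower, against 6 and 8 of 29. Shares over all genes tested were 31.2% higher and 33.5% lower in young and 27.5% and 26.9% in aged cultures.

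In mannose 6-phosphate tagging and sorting, 0 of 8 genes tested (of 9 listed) were called between untreated ages by edgeR, with 1 lower at an unadjusted p below 0.05, 0 by DESeq2 and 1 lower under the block. Both mannose 6-phosphate receptors rose under LPS, M6pr by 1.14 ± 0.06 in young and 0.92 ± 0.06 in aged cultures and Igf2r by 1.61 ± 0.21 and 1.93 ± 0.21. Over the list 3 rose and 2 fell in young and 4 rose and 1 fell in aged cultures. That is 62.5% called at each age, against 64.6% of all genes tested in young and 54.4% in aged cultures. Of the cystatins, inhibitors of cysteine cathepsins, Cst3 was lower in aged untreated cultures (-0.42 ± 0.14, adjusted p = 0.0483) and Cst7 higher (0.32 ± 0.065, adjusted p = 0.00274). Cstb, which encodes cystatin B, rose under LPS (0.60 ± 0.084 and 0.52 ± 0.084).

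A further 22 lysosomal enzymes tested (of 24 listed) were all lower in sign in untreated aged cultures, 6 of them called (27.3%), with a median of -0.23. Of all genes tested 7.81% were called lower there. None was called higher by edgeR or DESeq2 or at an unadjusted p below 0.05. Among the 6 called were the cysteine cathepsins Ctso (-1.80 ± 0.27, adjusted p = 1.33e-04) and Ctsf (-1.11 ± 0.17, adjusted p = 2.27e-04). Ctsk, another cysteine cathepsin of this list, averaged 869 CPM (SD 454) in young and 359 CPM (SD 254) in aged untreated cultures, with overlapping groups. Of 22 other membrane proteins tested (of 23 listed) 2 (9.09%) were called lower and 0 higher by edgeR, with a median of -0.13. At an unadjusted p below 0.05 8 were lower and 0 higher (DESeq2 3 and 0). Under LPS 9 of these membrane protein genes rose and 9 fell in young cultures (81.8% called), and 8 rose and 8 fell in aged ones (72.7%). Over all genes tested 64.6% were called in young and 54.4% in aged cultures. Slc15a3, a peptide and histidine transporter, rose by 3.21 ± 0.14 and 3.25 ± 0.14, the chloride and proton exchanger gene Clcn7 by 1.55 ± 0.09 and 1.17 ± 0.09, and the sialic acid exporter gene Slc17a5 fell by 1.69 in young and 1.34 in aged cultures on the log2 scale. The 2 genes of this list whose LPS response differed between ages, Tpcn1 (0.45 ± 0.079, adjusted p = 0.00125) and Tmem106b (0.33 ± 0.089, adjusted p = 0.0285), both fell less in aged cultures. They are 9.09% of those tested, against 4.12% of all genes tested with a higher response in aged cultures.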

How the data were processed

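Poly(A)-selected, stranded libraries from 20 BV-2 cultures were sequenced in pairs of reads by the authors, who aligned them to GRCm38 with STAR 2.6.1d, counted them per gene with featureCounts 1.5.1 and deposited raw counts, with no normalization. How strand, multiply aligned reads and overlapping genes were handled was not given in the sources used here, so genes with overlapping exons are uncertain. Depth limits precision most for Ids, and floors of 3 counts (0.165 to 0.296 CPM) cover counting error only.

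GENCODE (GRCm38) supplied symbols, exons and positions, and 55227 of 55487 identifiers were found there. Counts of the 20 libraries were fitted together by edgeR 4.0.16 (R 4.3.3), with TMM scaling, filterByExpr and a term for each group, and tested by quasi-likelihood, with Benjamini-Hochberg adjustment over 12799 genes and a threshold of 0.05. Log2 fold changes are given with their SE. CPM and TPM were computed from the counts, and log2 CPM with a prior count of 2. Nothing in the labels says how cultures were separated beyond their batch, so p-values measure the spread between these cultures. Pairs of libraries within a group differed by more than counting noise (chi-square per degree of freedom 2.31 to 24.4).

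The members and all lists were chosen with earlier results of these data known. Values in every library are given for the 3 members with the smallest adjusted p in each direction and contrast and for the 5 with the highest TPM. They are also given for Ctsb, Ctsd, Ctsl, Ctss, Lamp1, Lamp2, Hexa, Glb1 and Lipa. For Ctsc in aged untreated cultures only the range is given. Genes of the other lists are named where they passed with an absolute log2 fold change of at least 0.5, up to 3 per list, direction and contrast, with the 4 MiT/TFE genes named in any case. Cst3, Cst7, Tpcn1 and Tmem106b, and the values given for Tcirg1 between LPS groups, were picked after their values were seen. Ctsk is given by its level and spread, without a test result.

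The labels give the replicate number as the batch, and cultures were paired by it. Across genes, the deviations from the group mean of cultures sharing a number correlated at 0.146 on average over all pairs of groups (0.276 between young untreated and young LPS cultures, 0.260 between the aged ones). Between ages the mean was 0.111 for untreated cultures and 0.0425 under LPS (-0.214 to 0.275). The batch thus paired aged with young cultures only weakly, which limits the calls that the block added between ages. Alternatives were the batch as a replicate block, scaling by DESeq2 size factors or by library sizes alone, all genes without a filter, a minimum of 10 counts in every library, only the groups compared, each batch left out, DESeq2's Wald test (1.42.0), and, added after seeing the data, leaving out single libraries that stood apart. The test was tried on simulated counts first. Promoter windows came from RefSeq (GRCm38.p6).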

Additional observations from a re-analysis of the deposited data

Results flagged for a closer look

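Values of a gene were flagged where the highest or lowest of 5 cultures stood apart from the nearest other by more than 0.71 of the whole range of its group (Dixon's 95% criterion). Of 100 groups examined 13 were flagged, where chance flags about 1 in 20. The groups are not independent, because genes moved together within cultures, so an excess over chance cannot be judged from these rates. Most flags fell on aged culture 3. Untreated, it was the highest for Ctsb at 3514 CPM, Ctsd at 2901 CPM, Ctss at 529.6 CPM and Ctsz at 2309 CPM. Under LPS it was the highest for Ctsd at 2718 CPM, Ctss at 517 CPM, Ctsz at 3174 CPM, Hexa at 519 CPM and Scarb2 at 109 CPM. The median deviation of the 46 genes from their group mean was likewise flagged in this culture, at 0.23 untreated and 0.22 under LPS on the log2 scale. The other flags were low values, 77.8 CPM for Galc in young LPS culture 5 and 496 CPM for Lamp2 in aged LPS culture 4.

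The LPS responses of aged and young cultures differed by the interaction test for Sgsh, by 1.12 on the log2 scale, and for Galc, by 0.37. In both genes the fall under LPS was smaller in aged cultures. Exons of Card14 overlap Sgsh, so part of the Sgsh difference is uncertain.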

How the results depend on the processing

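With library sizes alone in place of TMM, which lower the median of all genes under LPS, members called higher were 4 in the LPS response of young cultures (median -0.29), 6 in that of aged cultures (median -0.15), 6 between aged and young LPS cultures and 4 in the difference of the responses, Laptm4a turned to -0.014 in the young response and Lamp1 to 0.048 between LPS groups. Lamp1 also turned, to 0.0022, without batch 2, and lay between -0.058 and that value when a batch or a culture was left out. Library sizes alone took away the lower calls of Ctss, Psap, Scarb2 and Laptm5 between LPS groups. The replicate block gave 0 higher and 20 lower between untreated ages, 13 and 16 in the young and 13 and 13 in the aged LPS response, 4 and 16 between LPS groups and 3 and 0 in the difference of responses. It took no call away, and the calls it added are those named beside the block. Leaving out each batch in turn gave 6 to 18 lower and 0 higher between untreated ages (median -0.33 to -0.17), 8 to 12 higher and 12 to 14 lower in the young response (median -0.090 to -0.059), 8 to 11 of each in the aged response (median -0.0082 to 0.017), 2 to 4 higher and 10 to 18 lower between LPS groups (median -0.27 to -0.12) and 1 to 2 higher in the difference of responses (median 0.025 to 0.063). Between untreated ages 8 were lower without young culture 1 and 21 without aged culture 3. With at least 10 counts in every library Ids and Acp5 were not tested. Depth limits what can be said of Ids, Smpd1 and Acp5.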
